A study of Homo sapiens with 4 samples.

Results

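Annexins are proteins that bind acidic phospholipids of membranes when calcium is present, through a conserved core of repeats, while their amino-terminal ends differ and carry the binding sites for partner proteins. They act in membrane fusion and repair, in the cortical cytoskeleton and, for members that reach the cell surface, in inflammation and in plasmin formation. The values below are those of 10 annexin genes, ANXA1 to ANXA7, ANXA9, ANXA10 and ANXA11, out of 19775 genes on the array. They were read by all 20 probe sets (small groups of oligonucleotides that report 1 transcript region) whose single platform gene symbol is one of these names, out of 54675 probe sets in all. The members were chosen by family name with the signals and log2 ratios of these same 4 arrays in view, so their levels and ratios are given as descriptions.

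Total RNA of stably transduced, puromycin-selected cells was hybridised to Affymetrix arrays. The cells were CL1-0, a human lung adenocarcinoma line, and CL1-5, a subline derived from it that is known to be more invasive. CL1-0 cells carried a control vector or a vector for AK4, a mitochondrial adenylate kinase. CL1-5 cells carried a non-silencing shRNA vector or an shRNA vector against AK4. Each of the 4 groups was 1 array, so values come without replicate error or p-value, and their precision is limited by the number of arrays. The sources used here do not name the promoter of either vector or say whether the cells were clones or pools.

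Signals are the deposited intensities after each array was scaled to a common trimmed mean of 53.0, and ratios are on the log2 scale. A floor was set at a scaled signal of 6.94, the 40th percentile of all values, and a gene counted as measured in a comparison where at least 1 of its 2 arrays lay above it. A gene was read from its brightest probe set and counted as higher or lower at a ratio of at least 2-fold.

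The 4 AK4 probe sets were lower with AK4 shRNA, by log2 ratios from -0.88 to -1.25, and were not higher on the CL1-0 array labelled AK4 vector, at -0.05 to -0.25, so directions from that array rest on its label. The deposited values of each line stood apart. In CL1-0, 4502 probe sets had exactly the same deposited value on both arrays, in CL1-5 this was so for 3287, and across the lines for 0. The medians as deposited were 6.07 and 6.23 in CL1-0 and 15.6 and 15.3 in CL1-5. The 3'/5' ratio of the beta-actin control probe sets, a measure of how degraded the RNA is, was 6.04 and 6.54 in CL1-0 and 1.34 and 1.61 in CL1-5. That of GAPDH was 1.25 and 1.54 in CL1-0 and 1.04 and 1.07 in CL1-5. Line, RNA quality and any difference in processing cannot be told apart in any comparison between the lines. Of 11 alveolar type II markers on the array, the labelled cell type, 8 to 10 lay above the floor, with surfactant protein C (SFTPC) at 24.0 to 30.8 and surfactant protein D (SFTPD) at 6.65 to 9.49. The phosphate transporter SLC34A2 was under the floor on all arrays, and LAMP3 was at 210.0 and 160.1 in CL1-0 but at 5.08 and 4.66 in CL1-5. Between the control arrays 1 of 10 measured type II markers was at least 2-fold lower in CL1-5, LAMP3. LPCAT1 (1.79) and NAPSA (1.05) were at least 2-fold higher. Of 6 measured epithelial markers 0 were lower and 3 higher. Among them KRT18 was at 12.1 and 10.8 in CL1-0 and at 1681 and 1485 in CL1-5. EPCAM and CDH1 were above the floor only on the CL1-0 array labelled AK4 vector. Of all measured genes 14.2% were lower and 17.1% higher. Of 6 leukocyte markers on the array, 2 to 4 lay above the floor, with a summed signal of 48.2 to 62.0 over the arrays, CD79A at 12.3 to 25.2 and PTPRC under the floor on every array. Of all probe sets on an array, 56.6% to 63.4% lay above the floor. A gene is read from its brightest probe set, so marker counts above the floor do not identify a cell type.

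The measured annexins differed more between the lines than within either line, with a median size of the log2 ratio of 1.02 between the controls, 0.32 in the AK4 vector comparison and 0.07 in the AK4 shRNA comparison. All measured genes had the same order, at 0.65, 0.28 and 0.13. ANXA1 was far lower in CL1-5 than in CL1-0, while ANXA3, ANXA4, ANXA6 and ANXA11 were higher there. To show the DNA from which members at both ends of this range start, RefSeq promoter sequences (GRCh38.p14) are printed. The 250 bases before the annotated start are given for ANXA1, the member with the lowest ratio of CL1-5 to CL1-0. They are also given for ANXA6, the one with the highest ratio at the floor used, and for ANXA2, whose signal was strong in both lines. The ANXA3 ratio of 1.61 is a lower bound against the floor. Without a floor it was 2.45, above the 1.63 of ANXA6. Capitals mark matches to the motifs searched on both strands, which were the TATA box spelled TATAAA, the GC box spelled GGGCGG, the CCAAT box, the AP-1 motif spelled TGANTCA and the cAMP response element spelled TGACGTCA.
ANXA1, chr9:73151615-73151864, plus strand: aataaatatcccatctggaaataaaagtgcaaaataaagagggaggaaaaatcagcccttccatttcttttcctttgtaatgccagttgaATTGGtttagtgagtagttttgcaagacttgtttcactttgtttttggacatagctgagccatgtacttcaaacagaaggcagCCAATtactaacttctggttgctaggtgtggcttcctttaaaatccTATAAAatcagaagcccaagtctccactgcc
ANXA2, chr15:60397987-60398236, minus strand: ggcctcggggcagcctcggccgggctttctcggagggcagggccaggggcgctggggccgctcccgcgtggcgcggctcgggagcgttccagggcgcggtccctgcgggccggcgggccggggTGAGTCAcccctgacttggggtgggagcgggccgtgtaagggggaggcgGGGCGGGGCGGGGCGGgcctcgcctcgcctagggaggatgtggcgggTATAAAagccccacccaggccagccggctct
ANXA6, chr5:151157780-151158029, minus strand: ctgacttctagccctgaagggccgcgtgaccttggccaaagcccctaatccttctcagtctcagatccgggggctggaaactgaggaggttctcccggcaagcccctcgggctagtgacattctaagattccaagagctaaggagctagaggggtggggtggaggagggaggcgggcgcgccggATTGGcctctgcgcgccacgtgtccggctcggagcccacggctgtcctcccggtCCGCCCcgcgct

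The ANXA1 window held 0 CpG dinucleotides and 38.4% G and C, where the median over all 35116 windows of this length was 11 CpG and 58.0%. A window without any CpG was found for 6.06% of all genes' starts. It had 1 TATA box, between 31 and 26 bases before the start, and 2 CCAAT matches. The ANXA2 window held 28 CpG and 78.0% G and C, with a TATA box at the same place, 3 overlapping GC boxes and 1 AP-1 match. The ANXA6 window held 19 CpG, 1 GC box and 1 CCAAT match, and no TATA box. ANXA10 was the other member with 0 CpG. The remaining windows of the family held between 4 and 36. ANXA4, ANXA6 and ANXA11 have more than 1 annotated start, so 14 windows stood for the 10 genes. Over all windows TATAAA was found in 10.7%, GGGCGG in 42.6%, CCAAT in 32.0%, TGANTCA in 6.57% and TGACGTCA in 1.65%. Among the 14 annexin windows these motifs were found in 4, 7, 4, 1 and 0. A match describes letters only and shows no bound factor.

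**Figure D1:**
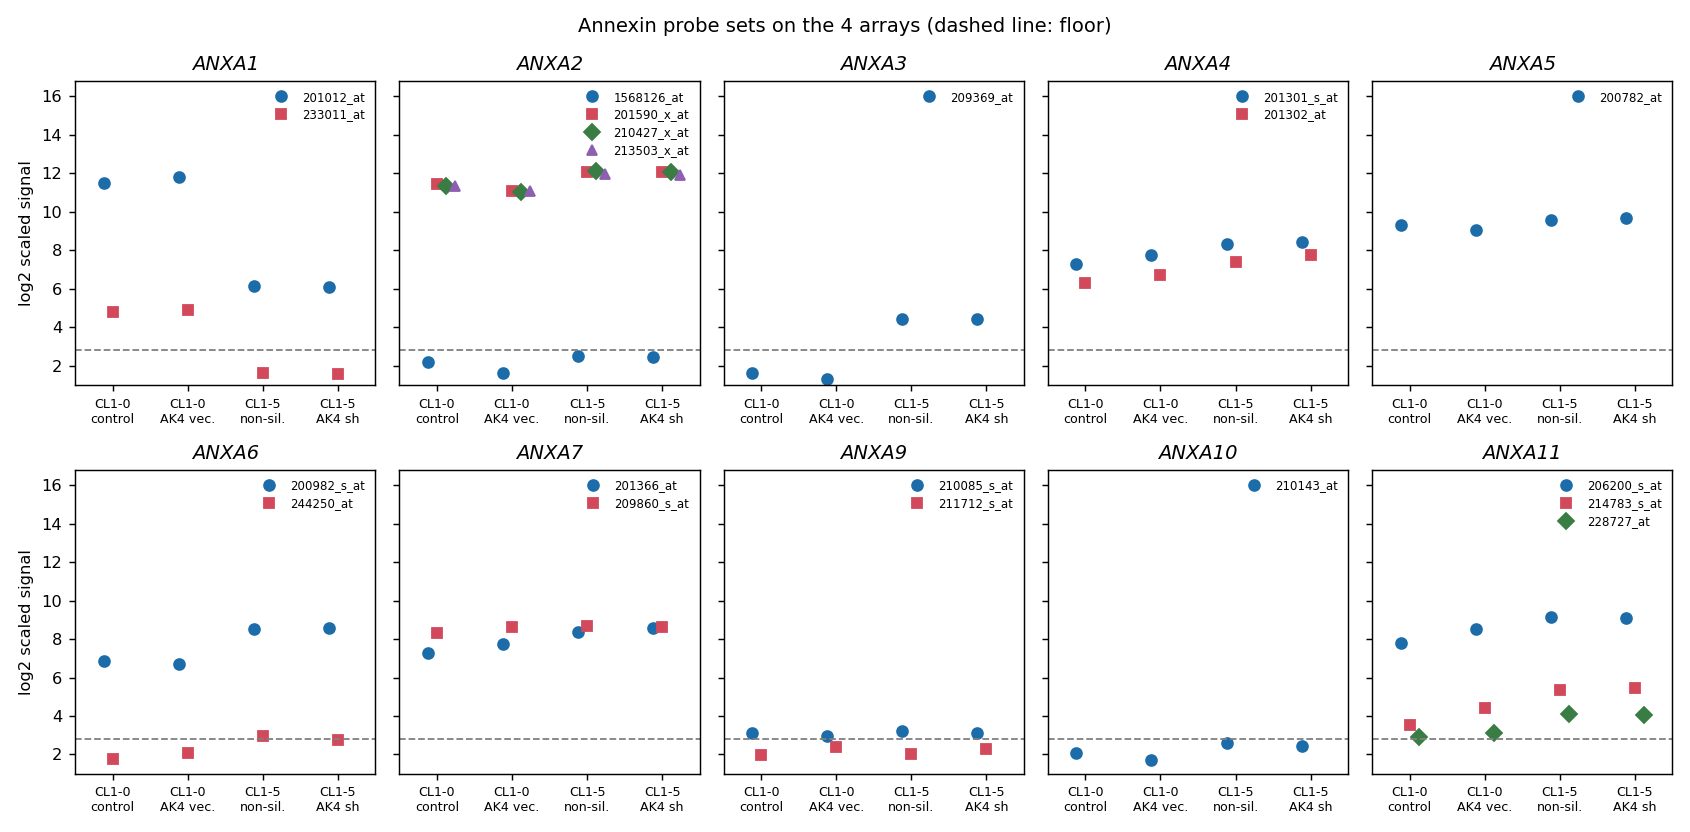
Scaled log2 signal of each annexin probe set on the 4 arrays, 1 panel per gene and 1 marker shape per probe set, with the floor as a dashed line. ANXA1 is high on both CL1-0 arrays and low on both CL1-5 arrays, while ANXA3, ANXA6 and ANXA11 are higher in CL1-5 and ANXA10 stays under the floor.

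ANXA1 encodes lipocortin 1, whose amino-terminal peptide acts on formyl peptide receptors and which glucocorticoids are known to induce. Its probe set 201012_at had a signal of 2875 on the CL1-0 control array, 3607 on the array labelled AK4 vector, 71.9 in CL1-5 cells with the non-silencing vector and 69.4 in those with the shRNA against AK4. Both CL1-0 arrays thus lay far above both CL1-5 arrays. Between the control arrays the log2 ratio of CL1-5 to CL1-0 was -5.32, and 34 of 15969 measured genes had a lower ratio. The second probe set, 233011_at, was at 28.2 and 30.1 in CL1-0 and under the floor in CL1-5, at least 4.07-fold lower between the controls. The gene-level ratio was -3.67 with the mean of both probe sets and otherwise between -5.81 and -4.45. In bulk RNA, fewer cells with the transcript and less transcript per cell cannot be told apart.

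Within each line ANXA1 moved little. On the array labelled AK4 vector 201012_at was at a log2 ratio of 0.33 and 233011_at at 0.09. With AK4 shRNA 201012_at was at -0.05. The genes most like ANXA1 over the 4 arrays, among 12797 genes above the floor on all of them, were ID2, an inhibitor of helix-loop-helix transcription factors, TPD52L1 and BEX2. Their distances were 0.17, 0.58 and 0.63, measured between log2 values after each gene was centred on its mean. ID2 was at 822 and 905 in CL1-0 and at 19.9 and 17.4 in CL1-5.

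ANXA2, which forms a complex with S100A10 and brings plasminogen and its activators together at the cell surface, was bright on all arrays. Its probe set 201590_x_at was at 2799 on the CL1-0 control array, 2157 on the array labelled AK4 vector, 4317 in CL1-5 cells with the non-silencing vector and 4324 in those with the shRNA against AK4. Both CL1-5 arrays lay above both CL1-0 arrays. The ratio between the controls was 0.62, under 2-fold, and those of 210427_x_at and 213503_x_at were 0.79 and 0.63. It passed 2-fold with quantile normalization (1.25), cyclic loess (1.21), no rescaling (1.5) and, at 1.0, in the other pair of arrays, CL1-5 AK4 shRNA against CL1-0 labelled AK4 vector. It was 0.14 with median scaling.

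On the array labelled AK4 vector these 3 probe sets were at -0.38, -0.30 and -0.26, and with AK4 shRNA at 0.00, -0.02 and -0.04. Probe sets ending in _x_at can bind related transcripts, and ANXA2 has near-identical processed pseudogenes, so its value is uncertain. The ANXA2P2 probe set 208816_x_at was at 666, 587, 1540 and 1501 in the array order used above, with a ratio of 1.21 between the controls. It can share signal with ANXA2 for the same reason. The remaining ANXA2 probe set, 1568126_at, was under the floor on all arrays, and 1 further probe set that lists ANXA2 together with another gene was not used.

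ANXA5, the phosphatidylserine-binding annexin used to stain dying cells, was at 634 on the CL1-0 control array, 534 on the array labelled AK4 vector, 755 in CL1-5 cells with the non-silencing vector and 830.1 in those with the shRNA against AK4. Both CL1-5 arrays lay above both CL1-0 arrays by less than 2-fold, with a ratio of 0.25 between the controls. That ratio was -0.24 with median scaling and 1.12 without rescaling, so its direction depended on how the arrays were scaled. In the AK4 comparisons it was at -0.25 in CL1-0 and 0.14 in CL1-5.

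ANXA6, which carries a duplicated annexin core and is known for binding at the plasma membrane and on endosomes, was higher in CL1-5. Its probe set 200982_s_at was at 116.6 and 103.0 in CL1-0 and at 362 and 385 in CL1-5. Both CL1-5 arrays were at least 2-fold above both CL1-0 arrays. The ratio between the controls was 1.63, or 3.11-fold, and 1090 of 15969 genes had a higher one. The call rests on this probe set. The other, 244250_at, was at 3.38 and 4.20 in CL1-0 and at 7.89 and 6.65 in CL1-5, close to the floor. The gene was at 0.91 with the mean of both and at 0.19 from 244250_at alone, the one whose name ends in plain _at. Its AK4 ratios were -0.18 in CL1-0 and 0.09 in CL1-5. NHSL3, L3MBTL1 and MEIS2 had the most similar patterns over the 4 arrays, at distances of 0.08 to 0.10.

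ANXA3, an annexin abundant in neutrophils, was detected above the floor in CL1-5 alone. Its probe set 209369_at was at 3.06 on the CL1-0 control array, 2.45 on the array labelled AK4 vector, 21.2 in CL1-5 cells with the non-silencing vector and 21.7 in those with the shRNA against AK4. Between the controls it was at least 3.06-fold higher in CL1-5, a log2 ratio of 1.61 against the floor. These are dim signals, and the ratio moved with the floor. It was 0.34 with a floor at the 60th percentile, 2.40 with a floor at the 20th and 2.45 without a floor. With AK4 shRNA the ratio was 0.03, and in CL1-0 it was not measured.

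ANXA4 is an annexin of epithelial cells. Its probe set 201301_s_at was at 157.6 on the CL1-0 control array, 217.6 on the array labelled AK4 vector, 321 in CL1-5 cells with the non-silencing vector and 341 in those with the shRNA against AK4. The second probe set, 201302_at, was at 80.0, 104.4, 166 and 213 in the same order. On both, the CL1-0 control array was lowest and both CL1-5 arrays were highest. The ratios between the controls were 1.02 and 1.05, just past 2-fold, and the gene was at 0.54 with median scaling and 0.65 in the other pair of arrays, which ends the call. In that other pair 201302_at was at 1.03, so the 2 probe sets fell on either side of 2-fold. On the array labelled AK4 vector the probe sets were at 0.47 and 0.38, and with AK4 shRNA at 0.09 and 0.36. TPD52, DGKD and BARHL1 had the most similar patterns, at distances of 0.01 to 0.03.

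ANXA7 and ANXA11 have long amino-terminal ends, and ANXA11 binds the EF-hand protein PDCD6 and links RNA granules to lysosomes. The ANXA11 probe set 206200_s_at was at 221 on the CL1-0 control array, 371 on the array labelled AK4 vector, 560.2 in CL1-5 cells with the non-silencing vector and 544 in those with the shRNA against AK4. The control array of CL1-0 was the lowest of the 4, and both CL1-5 arrays stayed above both CL1-0 arrays. All 3 ANXA11 probe sets were more than 2-fold higher between the controls, at 1.34, 1.80 for 214783_s_at and 1.23 for 228727_at. The last 2 were dim. In CL1-0 and CL1-5, 214783_s_at was at 11.8 and 21.1 against 41.1 and 43.3. For 228727_at the signals were 7.40 and 8.63, close to the floor, against 17.3 and 16.7. The gene was at 0.85 with median scaling and 0.55 in the other pair of arrays, under 2-fold in both. In that other pair 214783_s_at was at 1.03 and 228727_at at 0.95.

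ANXA11 also had the largest annexin ratio on the array labelled AK4 vector. The 3 probe sets were at 0.75, 0.84 and 0.22 in the same order, all above 0 and all under 2-fold, and 7.68% of measured genes had a higher ratio than its brightest one. It was 0.22 from 228727_at alone, the dim one that does not end in _s_at. With AK4 shRNA they were at -0.04, 0.08 and -0.05. The genes closest to ANXA11 in pattern were ITGB3BP, a kinetochore protein also called CENP-R, NELFB, a subunit of the complex that pauses RNA polymerase II, and UBXN2A, at distances of 0.01, 0.05 and 0.06.

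ANXA7, or synexin, is known for promoting fusion of secretory granules. Its probe set 209860_s_at was at 321 and 398 in CL1-0 and at 416 and 396 in CL1-5, and the groups overlapped. The second probe set, 201366_at, was at 158 and 216 in CL1-0 and at 325 and 381 in CL1-5, without overlap. Between the controls the first was at 0.37 and the second at 1.04, so the probe sets of this gene fell on either side of 2-fold. The gene was at -0.12 with median scaling and at 1.24 without rescaling. On the array labelled AK4 vector the probe sets were at 0.31 and 0.45, and with AK4 shRNA at -0.07 and 0.23.

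ANXA9, which lacks working calcium sites, and ANXA10, an annexin of gastric epithelium, were dim. For ANXA9, 210085_s_at lay between 7.91 and 9.48 on the 4 arrays and 211712_s_at under the floor. Its ratio between the controls was 0.13, with a negative sign under 3 of the 4 scalings tried, and its AK4 ratios were -0.13 and -0.11. ANXA10 was at 4.19, 3.33, 6.13 and 5.46, under the floor on every array, and had no measured ratio in any comparison.

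**Figure D2:**
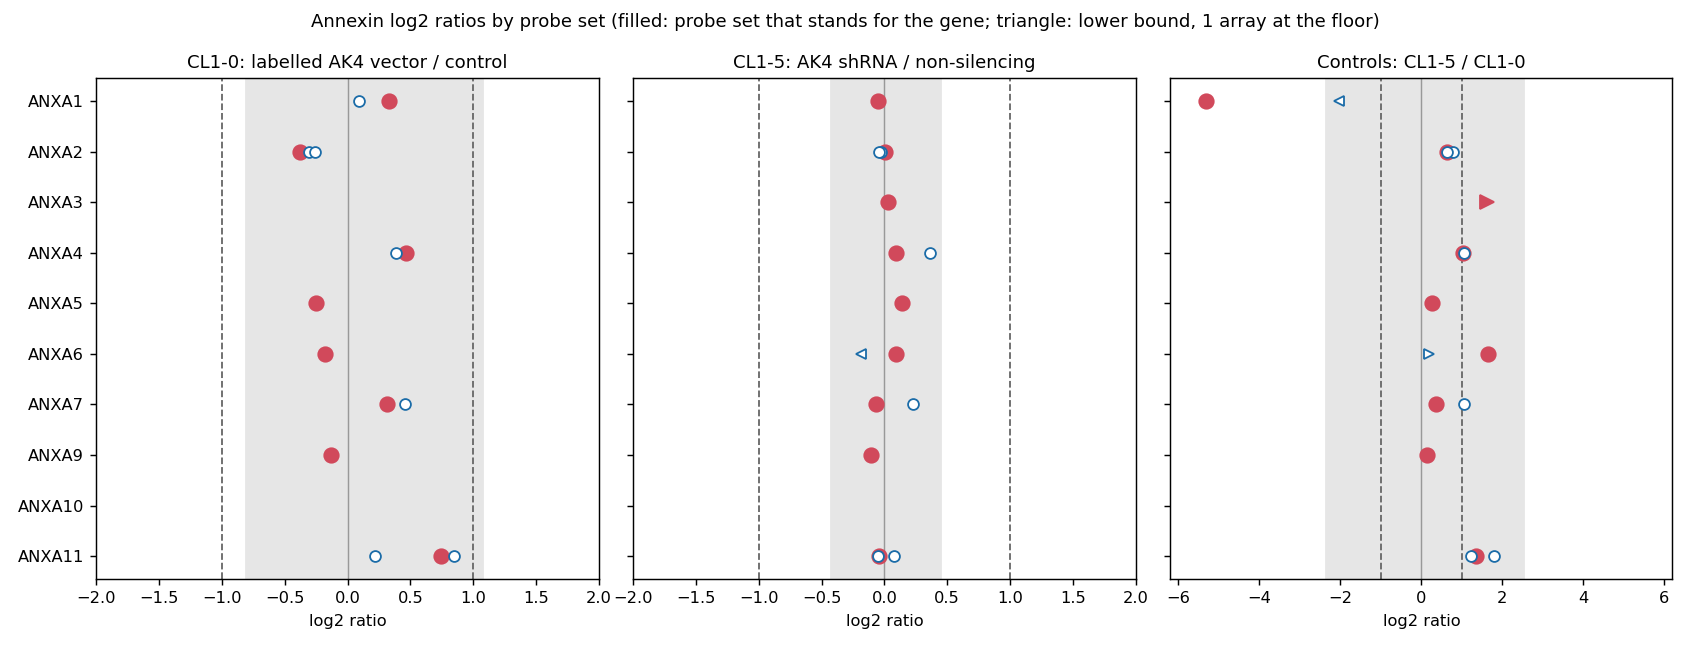
Log2 ratio of each measured annexin probe set in the AK4 vector comparison, the AK4 shRNA comparison and the comparison of the control arrays. Filled points are the probe sets that stand for the gene, dashed lines mark 2-fold and the grey band holds the central 95% of all measured genes. All annexin points lie inside 2-fold in the first and second panels, and the brightest ANXA1 probe set, at -5.32, lies outside the band in the third.

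Counted over the family, 9 of the 10 members were measured between the control arrays, all but ANXA10. Of these, 4 were at least 2-fold higher in CL1-5 (ANXA3, ANXA4, ANXA6 and ANXA11), against 17.1% of all 15969 measured genes, and 1 was at least 2-fold lower, ANXA1, against 14.2%. The values that brought the family forward include this comparison, so nothing is read from these shares. The members' median ratio was 0.62 and that of all genes 0.13. In the other pair of arrays 3 members were at least 2-fold higher (ANXA2, ANXA3 and ANXA6) and 1 lower (ANXA1), against 14.7% and 14.8% of genes. Of the 2734 higher and 2272 lower genes, 54.6% were higher, a split that was 26.7% with median scaling, 42.8% with quantile normalization, 43.4% with cyclic loess and 90.4% without rescaling. Scaling also moved the median of all genes, to -0.30 with median scaling and 0.83 without rescaling. Relative to that median the annexin median was higher by 0.50 as reported, 0.44 with median scaling, 0.54 without rescaling, 1.14 with quantile normalization and 1.20 with cyclic loess. Taking both arrays of each line, ANXA3 and ANXA6 were at least 2-fold higher on both CL1-5 arrays than on either CL1-0 array, as were 10.7% of genes. ANXA1 was at least 2-fold lower, as were 9.60%.

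The comparison in CL1-0 asked what differs with the AK4 vector. Of 8 measured annexins, 0 rose and 0 fell by 2-fold or more on the array labelled AK4 vector, where 3.22% and 1.17% of 14678 measured genes did. ANXA1, ANXA4, ANXA7 and ANXA11 had ratios above 0, and ANXA2, ANXA5, ANXA6 and ANXA9 below. Their range was -0.38 to 0.75 and their median 0.09, beside 0.05 for all genes. Ratios of probe sets that read 1 gene scattered with a pooled SD of 0.41 here, which is no replicate error, so of the 8 members ANXA4 and ANXA11 had ratios larger than it.

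The comparison in CL1-5 asked what differs when AK4 is silenced. Of 9 measured annexins, 0 rose and 0 fell by 2-fold or more with AK4 shRNA, where 0.0914% and 0.0131% of 15314 measured genes did. Ratios ran from -0.11 for ANXA9 to 0.14 for ANXA5, all smaller than the pooled SD of 0.22 between probe sets of a gene. The median was 0.00 for the annexins and for all genes. Among single probe sets the largest ratio was 0.36, for ANXA4 201302_at. The same CL1-0 control and CL1-5 non-silencing arrays enter the comparison of the lines, so the 3 comparisons are not independent.

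**Figure D3:**
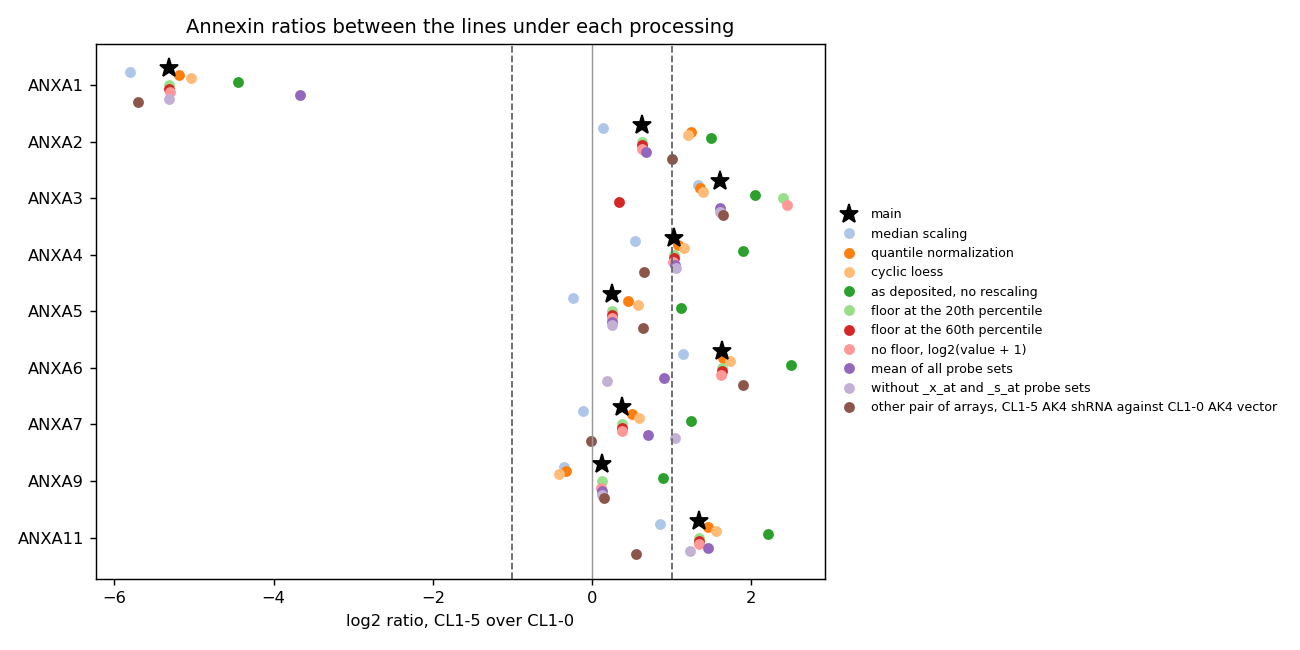
Log2 ratio of CL1-5 to CL1-0 for the 9 measured annexins under each processing, with the reported value as a star, other settings as coloured points and 2-fold as dashed lines. ANXA1 stays below -3 under every setting, and ANXA5, ANXA7 and ANXA9 lie on both sides of 0.

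Genes that work with annexins were taken from 6 lists. The counts between the lines stand beside 17.1% of all measured genes higher, 14.2% lower and a median of 0.13, and they move with the scaling, as given for each list. Counts in the AK4 vector comparison stand beside 3.22% of all measured genes higher and 1.17% lower. Those with AK4 shRNA stand beside 0.0914% higher and 0.0131% lower. At such shares a count of 0 in a short list is not read as a result about its members. Among S100 and other EF-hand proteins that bind annexins, 12 of 14 were measured between the control arrays, with 4 at least 2-fold higher in CL1-5, 2 lower and a median of 0.81. The 2 lower were SRI and S100A9. S100A9, named here after its value was seen, was at -1.18, with dim signals of 19.5 and 14.6 in CL1-0 and 8.59 and 8.93 in CL1-5. Without rescaling 7 were higher and 1 lower. With a floor at the 60th percentile, with probe sets averaged or without _x_at and _s_at probe sets, 1 was lower. GCA, higher at 1.18, was under 2-fold with median scaling (0.69), quantile normalization (0.81) and cyclic loess (0.88). Its signals overlapped between the lines, at 21.8 and 82.0 in CL1-0 and 49.3 and 60.4 in CL1-5, so it was higher against the CL1-0 control array only. S100A6, a calcium-binding partner of several annexins, was under the floor in CL1-0, at 5.73 and 4.32, and at 4336 and 4112 in CL1-5, a log2 ratio of at least 9.29 on this probe set, or 5.39 as a mean over its probe sets. S100A4 was at 13.6 and 12.6 in CL1-0 and at 348 and 348 in CL1-5, a ratio of 4.68. S100A11, the partner of ANXA1, was at 209 and 153 in CL1-0 and at 1127 and 1210.0 in CL1-5, a ratio of 2.43. S100A10, the ANXA2 partner, is named here after its value was seen. It was at 1505, 973, 2554 and 2858, highest on both CL1-5 arrays, with ratios of 0.76 between the controls, -0.63 in CL1-0 and 0.16 in CL1-5. Sorcin (SRI), which binds ANXA7 and ANXA11, was at -1.92 on its brightest probe set but at 0.14 as a mean over its probe sets and 2.21 without those ending in _x_at or _s_at, so it has no settled direction. In the AK4 vector comparison 1 of 10 measured members passed 2-fold, grancalcin (GCA), an EF-hand relative of sorcin, at 1.91 with signals of 21.8 and 82.0. Without the _x_at and _s_at kinds 2 did, since SRI was then at 1.22, against -0.20 on its brightest probe set. With AK4 shRNA 0 of 11 did, and the largest ratios were those of S100P (-0.42) and PEF1 (-0.36).

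The surface plasmin list, which holds the proteases that ANXA2 is known to gather, had 3 of 7 measured members at least 2-fold higher in CL1-5, 0 lower and a median of 0.89. Without rescaling 6 were higher and the median was 1.76, with median scaling 1 was lower, and with the higher floor the median was 2.04. Urokinase (PLAU) was at 7.82 and 6.63 in CL1-0 and at 2080 and 2189 in CL1-5. Its receptor PLAUR was at 15.5 and 20.5 against 746 and 806. Tissue plasminogen activator (PLAT) was under the floor in CL1-0 and at 153 and 205 in CL1-5. The ratios of these genes were 8.05, 5.59 and at least 4.46, larger than that of ANXA2 itself. ANXA2R, which encodes an annexin A2 receptor, went the other way, at 270 and 201 in CL1-0 and 26.5 and 27.0 in CL1-5, a ratio of -3.35. In the AK4 comparisons the plasmin list had 0 members past 2-fold, with SERPINE2 at -0.49 and PLGRKT at 0.48 in CL1-0 and PLAT at 0.43 and SERPINE2 at -0.27 in CL1-5.

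Of the annexin-family genes outside the 10, 5 of 7 had a probe set with 1 symbol. Between the controls 3 were at least 2-fold higher, the pseudogenes ANXA2P3 (1.76), ANXA2P2 (1.21) and ANXA2P1 (at least 1.17), and 1 was lower, ANXA2R. With a floor at the 60th percentile ANXA2P3 was at 0.98, with median scaling ANXA2P2 was at 0.72, and ANXA2P1 was under 2-fold with median scaling (0.89), quantile normalization (0.90) and cyclic loess (0.87). None passed 2-fold in the AK4 comparisons, where ANXA2P3 (0.46) and ANXA2R (-0.42) were largest in CL1-0 and ANXA2P1 (-0.09) and ANXA2P3 (0.07) in CL1-5.

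The ANXA1 and glucocorticoid list had 6 of 10 members measured between the controls, with 2 higher and 1 lower and a median of -0.05. With median scaling 1 was higher and 3 lower, and with quantile normalization or cyclic loess 1 was higher and 2 lower. The glucocorticoid receptor NR3C1 was higher in CL1-5, where ANXA1 was low, at 892 and 997 against 137 and 166, a ratio of 2.70. The formyl peptide receptor FPR1 was at 1.46, but under 2-fold with median scaling, quantile normalization, cyclic loess or the higher floor, at 0.97, 0.97, 0.87 and 0.82. PLA2G4A, the cytosolic phospholipase A2 that annexin A1 is known to inhibit, was at 36.8 and 35.1 in CL1-0 and under the floor in CL1-5, a ratio of at most -2.41. In the AK4 comparisons 0 of 5 members passed 2-fold in either line, with TSC22D3 (0.31) and FKBP5 (-0.29) largest in CL1-0 and FPR2 (-0.28) and FKBP5 (-0.17) in CL1-5. The sign of FPR2 turned under 1 alternative.

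Phosphatidylserine is the lipid that ANXA5 binds, and scramblases and flippases set its side of the membrane. Of 10 measured members of their list, 1 was at least 2-fold higher in CL1-5 and 2 lower, with a median of 0.04. The higher count differed under all 9 alternatives. It was 0 with median scaling, quantile normalization, cyclic loess or the higher floor, 5 without rescaling and 2 under the other 4. Without rescaling 1 was lower and the median was 0.91. TMEM30B was at 1.13 or more, and under 2-fold with median scaling, quantile normalization or cyclic loess. The flippases ATP11A and ATP11B were at -1.91 and -1.41, but at 0.00 and 0.55 when all probe sets of a gene were averaged, which ends both calls and turns the sign of ATP11B. Without probe sets of the _x_at and _s_at kinds ATP11A was at 1.20. On the array labelled AK4 vector the flippase ATP8A1 was higher, at 33.0 against 11.1, a ratio of 1.57 that a floor at the 60th percentile lowered to 0.98. With AK4 shRNA 0 of 9 members passed 2-fold. ATP11A (0.62, or -0.25 without the _x_at and _s_at kinds) and ATP8B1 (0.53) were largest and the median was 0.27, or 0.02 when probe sets were averaged.

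Genes of plasma membrane repair, in which annexins form a cap and the ESCRT-III complex cuts off the damaged membrane, had 20 measured members. Of these, 1 was at least 2-fold higher in CL1-5 and 3 lower, with a median of 0.09. Without rescaling 9 were higher and 0 lower with a median of 0.96, with median scaling 6 were lower, and with probe sets averaged 4 were higher. The protease calpain 2 (CAPN2) was higher, at 2640 and 2556 against 499 and 571, a ratio of 2.40. The ESCRT genes CHMP2A, CHMP2B and TSG101 were lower by ratios of -1.85, -1.76 and -1.30, and were under 2-fold without rescaling, at -0.98, -0.89 and -0.43. In the AK4 comparisons 0 members passed 2-fold. CAVIN1 (-0.93) and the calpain subunit CAPNS1 (-0.84) were largest in CL1-0, where CAVIN1 averaged -1.53 over its probe sets, and CHMP4C (0.48) and EHD2 (0.28) in CL1-5.

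**Figure D4:**
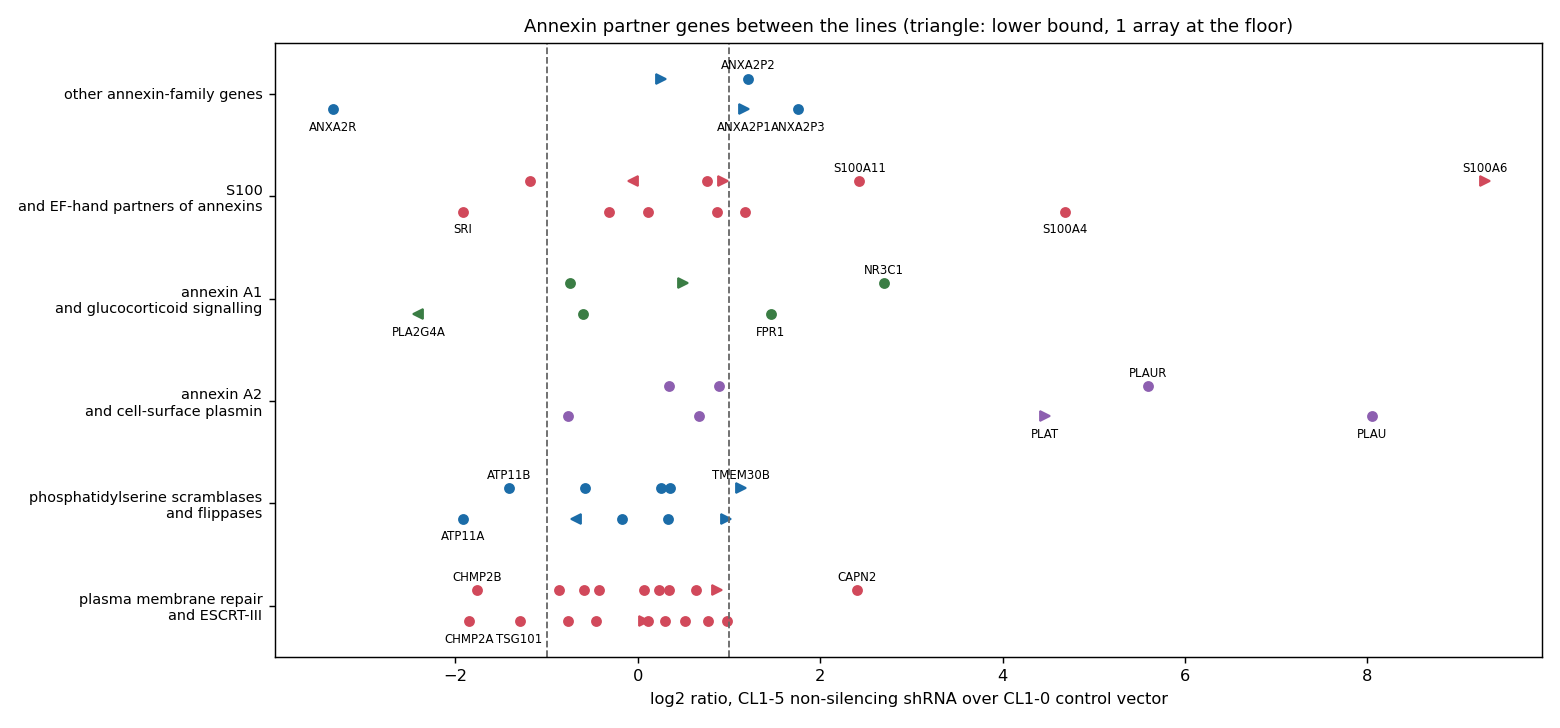
Log2 ratio of CL1-5 non-silencing shRNA to CL1-0 control vector for every measured member of the 6 partner lists, 1 row per list, with 2-fold as dashed lines and triangles for lower bounds. S100A6, PLAU, PLAUR, S100A4 and PLAT lie farthest to the right and ANXA2R farthest to the left.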

How the data were processed

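The deposited table gives a linear intensity for each probe set on each array. MAS5 is named, without version or role, per the submitters' processing notes; background correction and scaling target are not stated in the sources used here, and no detection calls were used. Arrays were scaled to a common mean with 2% trimmed at each end, leaving out 62 control probe sets. Values under the 40th percentile were set to it, and log2 was taken. Of the probe sets, 41097 had 1 gene symbol, and 99.9% of these symbols were updated through the gene identifier with the RefSeq table of GRCh38.p14. The probe set with the highest mean log2 level stood for a gene. No test was possible with 1 array per group. The procedure was tested on simulated data, made of copies of 1 array with planted changes and a scale factor for each copy. These copies shared 1 distribution of values, so the test does not cover the choice of scaling between the lines. Members, lists and rules were chosen with earlier results of these data known. Named were all members, AK4, up to 4 genes per partner list and comparison past 2-fold (otherwise the 2 largest), and the 3 genes closest in pattern to each of the 4 members with the largest range among those above the floor on all arrays. The promoter search was added after the data were seen. In all, 9 alternatives were tried, with limma 3.58.1 for cyclic loess, Python 3.11.15 and pandas 2.3.3, and 1 further alternative, the other pair of arrays, was added after seeing the data.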

Additional observations from a re-analysis of the deposited data

How the results depend on the processing

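No paired analysis was possible because each group is 1 array. In CL1-0 and in CL1-5 the counts of annexins past 2-fold with the AK4 vector or AK4 shRNA stayed at 0 under all 9 alternatives, and the median annexin ratio stayed between -0.15 and 0.31 and between -0.02 and 0.05. Between the lines 1 annexin was lower under each alternative. The count of higher annexins was 2 with median scaling and 7 without rescaling, against 4, since either choice shifts all ratios one way. It was 5 with quantile normalization or cyclic loess, 3 with a floor at the 60th percentile or with probe sets averaged, and 4 under the rest. It was 3 in the other pair of arrays, an alternative chosen after seeing the data. The median stayed between 0.14 and 1.37. Among partner genes whose ratio between the lines passed 2-fold, the sign turned for SRI (0.14 when probe sets were averaged and 2.21 without _x_at and _s_at probe sets), ATP11A (0.0025 and 1.20 in the same order) and ATP11B (0.55 when averaged), and the cause was not tested. Signals near the floor limit ANXA3, ANXA9 and ANXA10, and the probe sets 228727_at of ANXA11 and 244250_at of ANXA6.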
